A study of Homo sapiens with 6 samples.

Results

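DERA encodes deoxyribose-phosphate aldolase, an enzyme that splits deoxyribose phosphate into glyceraldehyde phosphate and acetaldehyde. Its RNA was followed here together with 8 genes of the pentose phosphate pathway (PGD, PGLS, RPIA, RPE, TKT, TALDO1, RBKS and TIGAR) in H9, a human embryonic stem cell line in wide laboratory use. DERA was chosen by its fold change and p-value in the only contrast of the study, so its own change is given as a description. The other 8 were chosen for their place in the pathway. Of the 9 genes, all had a row among the 53719 of the count table, TIGAR under its older symbol C12orf5, and 8 were among the 19721 genes with enough counts to be tested.

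All cells were H9, grown in RSeT, a commercial medium for naive-type pluripotency. The knockdown group (3 libraries) received the gapmer named ALR ASO, directed at alpha satellite RNA, the transcript of the centromeric repeats. The control group (3 libraries) received a control gapmer. A gapmer is an antisense oligonucleotide whose DNA core lets RNase H cut the paired RNA. RNA was taken after 48 h in both groups. The libraries of each group carry the letters a, b and c, the order in which their values are listed below. Nothing in the labels says that they came from separate cultures, so the p-values measure the spread between these libraries, which may be technical. Alpha satellite RNA itself was not analysed here, so the extent of its loss is not known from these values.

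The pentose phosphate pathway is a side route of glycolysis. Its oxidative branch releases carbon dioxide and makes NADPH, the reducing power for lipid synthesis and glutathione. Its non-oxidative branch shuttles sugar phosphates between ribose phosphate, needed for nucleotides, and the intermediates of glycolysis. DERA and ribokinase (RBKS) join free or salvaged deoxyribose and ribose to this pool, and DERA has also been found at stress granules with the RNA-binding protein YBX1. TIGAR is a phosphatase whose transcription p53 can raise. It lowers fructose bisphosphate and so leaves more sugar phosphate for the pathway.

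DERA and TIGAR were the members with lower values in every knockdown library than in every control library, as were 9.36% of all tested genes. The 300 bases around their RefSeq starts (GRCh38.p14, 250 before to 50 after the start, plus strand) are shown for that reason, with capitals marking matches on either strand to CCAAT or GGGCGG. They lie at chr12:15911082-15911381 for DERA and chr12:4320963-4321262 for TIGAR. The TIGAR window lies inside the gene span given below (chr12:4307763-4354593), which begins before the RefSeq start.
DERA: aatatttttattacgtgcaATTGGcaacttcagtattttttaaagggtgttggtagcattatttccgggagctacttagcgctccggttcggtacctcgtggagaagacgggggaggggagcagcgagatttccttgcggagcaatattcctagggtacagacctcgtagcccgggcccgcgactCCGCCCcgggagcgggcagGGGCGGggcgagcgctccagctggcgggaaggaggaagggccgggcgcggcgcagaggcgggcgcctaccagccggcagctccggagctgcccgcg
TIGAR: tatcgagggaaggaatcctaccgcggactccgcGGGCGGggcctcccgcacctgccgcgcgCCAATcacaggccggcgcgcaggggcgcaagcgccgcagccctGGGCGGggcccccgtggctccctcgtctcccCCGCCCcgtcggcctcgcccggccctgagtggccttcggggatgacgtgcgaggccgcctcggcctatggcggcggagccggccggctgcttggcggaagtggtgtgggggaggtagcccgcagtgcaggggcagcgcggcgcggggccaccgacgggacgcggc

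The DERA window held 1 match to the CCAAT box (CCAAT) and 2 to the GC box (GGGCGG), and the TIGAR window held 1 and 3. Over all RefSeq promoter windows of this length, 34.6% held a CCAAT match and 45.0% a GC box match. Both windows were rich in CpG, with 30 sites in DERA and 43 in TIGAR against a median of 14. The windows of the other members held 24 (RPE) to 44 (TALDO1), so this is not particular to DERA and TIGAR. All of those windows also held a GC box match, and those of PGD, RPIA, RPE, TKT and TALDO1 a CCAAT match. Neither window held the TATA box (TATAAA), the E-box (CACGTG), the antioxidant response element core (TGACNNNGC) or the p53 half-site consensus, which stood in 11.5%, 7.26%, 13.3% and 6.63% of all windows. The antioxidant core was present in the windows of PGD and RPE, with 1 match each. The TATA box, E-box and p53 half-site were absent from the windows of all other members as well. These matches describe letters only.

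Total counts per library ran from 25087629 to 36576752. Knockdown library a stood apart, with counts in 29678 rows against 25898 to 26788 in the other 5. Results for DERA, TIGAR and CTPS1, and the counts of genes past the threshold, are therefore also given without it. The pluripotency markers were abundant (summed level 4583 to 5197 CPM in knockdown and 4633 to 4750 in control libraries), although SOX2 was listed at 0. Markers of naive cells, with TFCP2L1 the highest, summed to 72.4 to 80.6 CPM in knockdown and 72.6 to 78.1 in control libraries, and those of primed cells, with THY1 listed at 0, to 121 to 141 and 123 to 135. CPM stands for counts-per-million, scaled by TMM to a common effective library size throughout. Markers of trophectoderm and amnion summed to 4.55 to 5.21 CPM in knockdown and 4.47 to 5.22 in control libraries, and those of fibroblasts to 86.6 to 96.2 and 90.5 to 104. Neural markers summed to 41.0 to 46.7 CPM in knockdown and 42.0 to 44.0 in control libraries. Mesoderm and endoderm markers summed to 15.4 to 17.0 CPM in knockdown and 12.3 to 15.1 in control libraries, with no overlap; 0 of the 4 tested of 8 were called, and their part in the results below was not tested. RNA was measured in bulk, so fewer cells of a type and less RNA per cell cannot be told apart. Over all tested genes, edgeR's quasi-likelihood test called 155 at a Benjamini-Hochberg adjusted p of 0.05 (0.786%), 128 lower (0.649%) and 27 higher (0.137%) in knockdown libraries. The groups did not overlap in 18.9% of tested genes, lower in 9.36% and higher in 9.55%. Of the 7 tested pluripotency markers, edgeR called 0 and DESeq2 called 1 (4.18% of all), and 3 had no overlap between groups. Of the 3 tested fibroblast markers, edgeR and DESeq2 called 0. Among those 3, 2 had an unadjusted edgeR p under 0.05 (14.2% of all) and 1 had no overlap. Of the 4 tested mesoderm and endoderm markers, 2 had no overlap and 1 had an unadjusted edgeR p under 0.05. Their median log2 fold change was 0.38, and MIXL1 had the highest level of the 8.

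DERA (ENSG00000023697.12) spans 126 kb of the plus strand at chr12:15911172-16037282 in GENCODE 29 (GRCh38). No other row matched to GENCODE 29 overlaps it there, and rows without a match were not checked. It had 633, 717 and 592 reads in knockdown and 1010, 1141 and 1375 in control libraries. On the CPM scale this was 22.3, 21.5 and 23.4 in knockdown and 35.5, 36.7 and 37.8 in control libraries. Every knockdown library lay below every control library, and the gap between the groups exceeded the range within either. The means were 22.4 ± 0.972 and 36.7 ± 1.16 CPM (SD, n = 3 each). The log2 fold change was -0.71 ± 0.07 (SE). The fitted level in knockdown was 0.610 of control, with a 95% interval of 0.547 to 0.680. That interval takes no account of the choice of DERA by this same contrast. Among the 128 genes called lower, DERA ranked 24th by size of change, and their median log2 fold change was -0.55. Without knockdown library a the DERA value was -0.71 ± 0.09 (SE). Over all 17 alternative settings it stayed between -0.77 and -0.69.

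**Figure D1:**
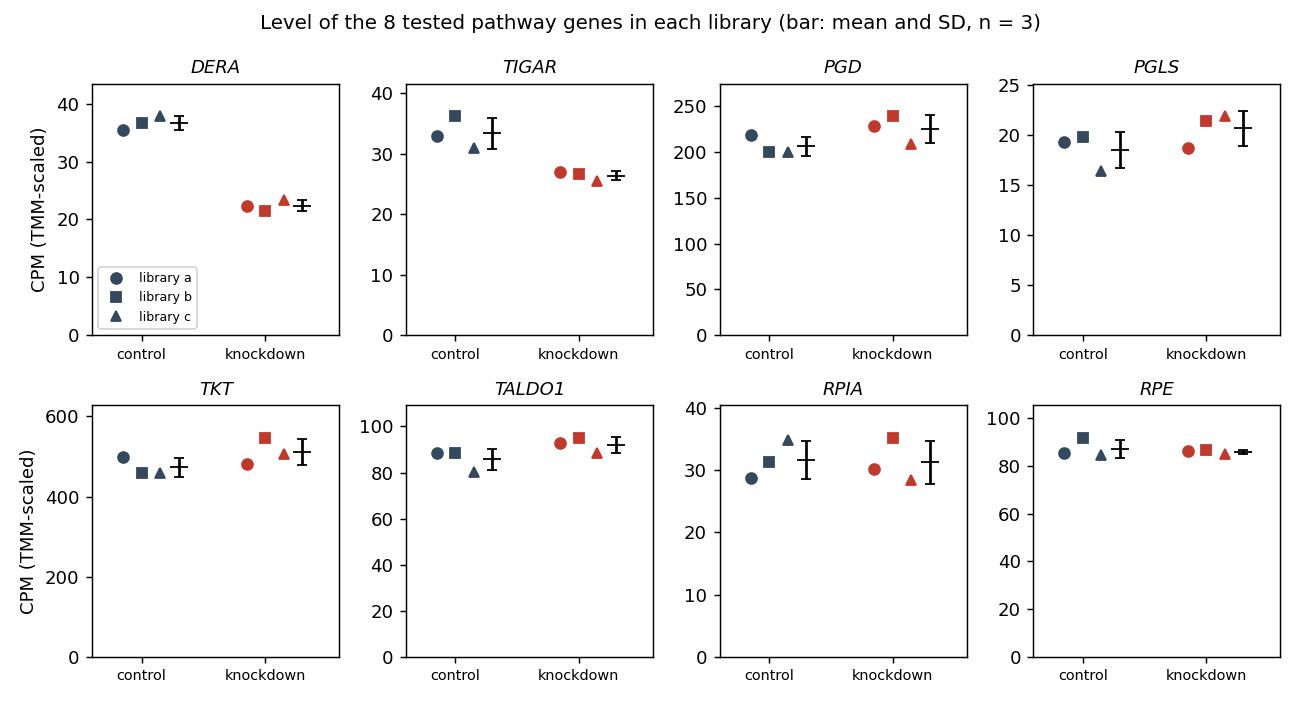
Level of each tested member (y axes: TMM-scaled CPM, from 0) in the 3 control and 3 knockdown libraries, with the mean and SD beside the points. DERA and TIGAR are the panels whose groups do not overlap, with DERA at 21.5 to 23.4 CPM in knockdown and 35.5 to 37.8 in control libraries.

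The share of genes called lower was highest among the longest genes. Exons make up 2.26% of the DERA span, the smallest share among the 9 members. Among tested protein-coding genes of 100 kb or more, 56 of 3302 were called lower (1.70%), DERA among them, and the median log2 fold change was -0.04. For genes under 10 kb it was 9 of 2382 (0.378%), with a median of 0.08. The share called lower was 0.259% at 10 to 30 kb and 0.538% at 30 to 100 kb, so it did not rise steadily with length. After the dependence on gene span had been taken out of every library, a step chosen after seeing the data, the DERA value was -0.71 ± 0.08 (SE). The part of gene length in the DERA value was not tested.

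The remaining members were then compared over the same libraries. Of the 7 tested besides DERA, 0 passed the adjusted threshold in edgeR, against 0.786% of all tested genes. At an unadjusted p under 0.05 the count was 1 of 7, against 14.2% of all tested genes. DESeq2 called 1 (4.18% of all genes it gave an adjusted p) and limma-voom 0 (0.882% of all), and the gene counted was TIGAR each time. Libraries of the 2 groups were fully separated in 1 of the 7, again TIGAR, against 18.9% of all tested genes (9.36% lower). With 7 genes, 1 count is close to the shares of all genes for the unadjusted p and for separation, and nothing particular to the members is read from it. The median log2 fold change of the 7 was 0.10, and that of all tested genes was 0.02.

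The oxidative branch was represented by PGLS, the lactonase, and PGD, phosphogluconate dehydrogenase, which makes NADPH. PGD (ENSG00000142657.20, chr1:10398592-10420144) had 228, 239 and 209 CPM in knockdown and 218, 200.1 and 200.2 in control libraries. Knockdown library c lay among the controls, so the groups overlapped. Its log2 fold change was 0.13 ± 0.07 (SE; edgeR adjusted p = 0.445), and the 95% interval of the change ran from -1.82% to 21.7%. PGLS (ENSG00000130313.6, chr19:17511629-17521288) had 18.7, 21.4 and 21.9 CPM in knockdown and 19.3, 19.8 and 16.4 in control libraries. Its value was 0.16 ± 0.10 (SE; edgeR adjusted p = 0.493), with an interval from -3.63% to 29.7%, the widest of the members that were tested. Neither enzyme gave an interval that reached the fall seen for DERA.

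The non-oxidative branch has an isomerase (RPIA), an epimerase (RPE) and the carbon transfer enzymes transketolase (TKT) and transaldolase (TALDO1). TKT (ENSG00000163931.15, chr3:53224707-53256052) had 482, 546 and 506 CPM in knockdown and 499.9, 460.0 and 459 in control libraries, with overlap. The log2 fold change was 0.11 ± 0.07 (SE; edgeR adjusted p = 0.512; interval -2.93% to 20.4%). TALDO1 (ENSG00000177156.10, chr11:747329-765024) had 92.7, 94.9 and 88.4 CPM in knockdown and 88.6, 88.3 and 80.4 in control libraries. Its knockdown library c fell just below control library a, and the change was 0.10 ± 0.07 (SE; edgeR adjusted p = 0.520; interval -2.86% to 18.6%). For TKT, PGD, PGLS and TALDO1, the estimate stayed above 0 in all 17 alternative settings without passing the threshold in any.

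RPIA, which makes ribose phosphate, and RPE, which makes xylulose phosphate, were nearly level. RPIA (ENSG00000153574.8, chr2:88691644-88750935) had 30.2, 35.1 and 28.5 CPM in knockdown and 28.7, 31.4 and 34.8 in control libraries, and the log2 fold change was -0.01 ± 0.10 (SE; edgeR adjusted p = 0.963; interval -14.3% to 14.4%). RPE (ENSG00000197713.14, chr2:210002565-210022259) had 86.1, 86.7 and 85.0 CPM in knockdown and 85.4, 91.6 and 84.7 in control libraries. Its value was -0.02 ± 0.06 (SE; edgeR adjusted p = 0.909; interval -10.3% to 8.19%). Both signs changed when library size alone was the scale, to 0.01 for RPIA and 0.005 for RPE, and RPIA was 0.001 with upper-quartile scaling, so no direction is given for either. The RPE counts are uncertain, since KANSL1L overlaps 23.8% of its exon bases in GENCODE 29 and RPEL1, an intronless copy, was not analysed here.

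**Figure D2:**
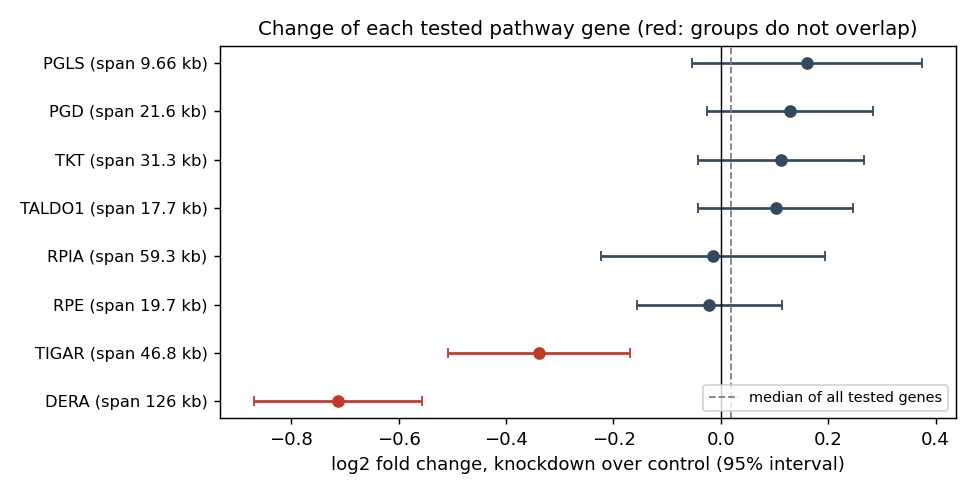
Log2 fold change of each tested member (x axis, knockdown over control) with its 95% interval, next to the median of all tested genes (dashed). The interval of TIGAR lies below 0, and those of the other 6 members include 0. That of DERA also lies below 0, but DERA was chosen by this contrast, so its interval is a description only.

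RBKS, the ribokinase (ENSG00000171174.14, chr2:27781364-27891098, minus strand), was listed at 0 in all 6 libraries. A count of 0 allows up to 3 counts, or 0.0825 to 0.119 CPM depending on the library, as counting error only. The whole RBKS span lies inside the plus-strand gene MRPL33 in GENCODE 29, and BRE (now BABAM2), also on the plus strand, overlaps part of it. Of 606 protein-coding genes that lie inside a gene on the opposite strand only, 564 were listed at 0 (93.1%), whereas 1128 of 18071 genes inside no other gene were (6.24%). Where such a gene shared no exon base with another gene, 325 of 345 were still at 0 (94.2%). Counting over whole gene spans, without strand and with shared reads dropped, would give such zeros, so the 0 of RBKS is not read as absence of its RNA. The same counting would place intronic reads in the values of DERA and the other members, and spliced and unspliced RNA cannot be told apart in them. SOX2 lies inside SOX2-OT on the same strand, a class in which 243 of 271 genes were listed at 0 (89.7%).

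TIGAR (ENSG00000078237.6, chr12:4307763-4354593) had 27.0, 26.6 and 25.5 CPM in knockdown and 32.9, 36.2 and 31.0 in control libraries. All 3 knockdown libraries were below all 3 control libraries, and the control libraries were more spread than the knockdown ones. The means were 26.4 ± 0.748 and 33.4 ± 2.61 CPM (SD, n = 3 each). The log2 fold change of -0.34 ± 0.08 (SE) missed the threshold (edgeR adjusted p = 0.0754; 95% interval of the change -29.7% to -11.1%). Without knockdown library a it was -0.36 ± 0.09 (SE; edgeR adjusted p = 0.118). The value passed in 5 of 17 alternative settings, among them DESeq2 (adjusted p = 0.0226) and the fit without knockdown library c (edgeR adjusted p = 0.0382), and the adjusted p ranged from 0.00803 to 0.294. TIGAR was lower by 0.28 to 0.39 on the log2 scale in all of them.

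Ratios of counts within a library do not depend on scaling. DERA counts were 2.31%, 2.05% and 2.43% of the summed counts of the 7 other tested members in knockdown libraries, and 3.65%, 3.96% and 4.17% in control libraries. The groups were well separated, with means of 2.26 ± 0.196% and 3.93 ± 0.263% (SD, n = 3 each), so the knockdown ratio was 0.576 of the control ratio. It ranged from 0.555 to 0.603 when each library was left out. Set against TIGAR, the other member with lower values, DERA was lower still: the DERA to TIGAR ratio was 0.850 ± 0.0586 in knockdown and 1.10 ± 0.104 in control libraries, without overlap. TIGAR counts were 11.7 ± 0.545% of PGD counts in knockdown and 16.2 ± 1.64% in control libraries, also without overlap. Within the non-oxidative branch the TKT to TALDO1 ratio was 5.56 ± 0.308 and 5.52 ± 0.272, and the RPIA to RPE ratio was 0.364 ± 0.0368 and 0.363 ± 0.0413, with overlap in both. No test was run on these ratios, since DERA was chosen for its fall.

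**Figure D3:**
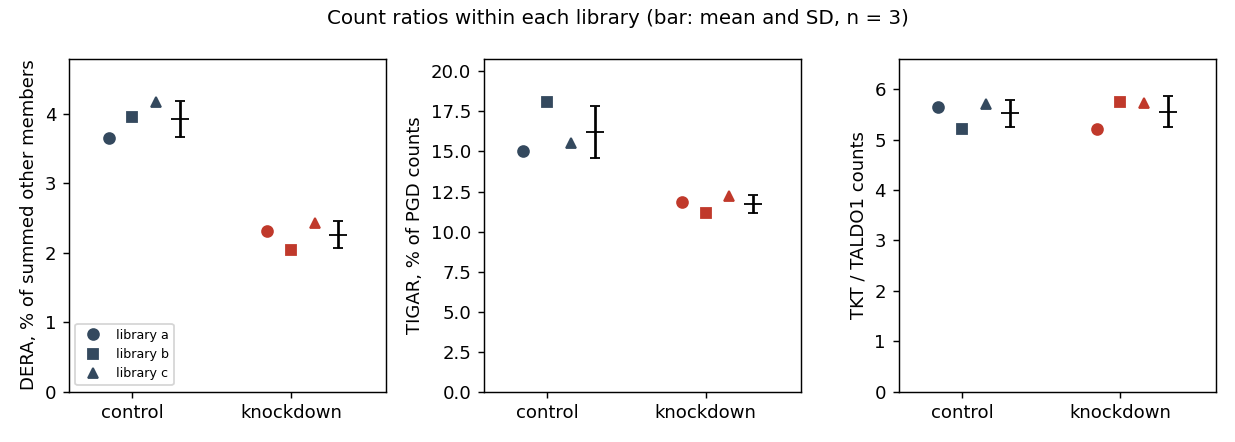
Ratios of raw counts within each library (y axes from 0): DERA as a percentage of the 7 other tested members, TIGAR as a percentage of PGD, and TKT over TALDO1, with mean and SD. The DERA ratio lies at 2.05% to 2.43% in knockdown and 3.65% to 4.17% in control libraries, and the TKT to TALDO1 ratio overlaps between groups.

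Genes around the pathway were read from 7 lists with 102 tested genes in all. Of these, 1 was called lower and 0 higher (0.980%, against 0.786% of all tested genes), DESeq2 and limma-voom called 1 each (4.18% and 0.882% of all), and 24 had an unadjusted p under 0.05 (14.2% of all). Of the 102, 24 had no overlap between groups (23.5%, against 18.9% of all).

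The called gene was CTPS1, a CTP synthase, from the list of purine and pyrimidine synthesis (20 tested, 5 with an unadjusted p under 0.05, median log2 fold change 0.08). CTPS1 had 99.2, 100.01 and 95.4 CPM in knockdown and 124, 121 and 131 in control libraries, with no overlap. Its log2 fold change was -0.35 ± 0.06 (SE; edgeR adjusted p = 0.0245; over the alternatives 5.97e-05 to 0.203). The call was lost without knockdown library a (edgeR adjusted p = 0.0539) or b (0.0566) and without control library a (0.119), b (0.0999) or c (0.203), and it held in the other 12 of 17 alternatives.

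Nucleoside breakdown and salvage, which supplies deoxyribose phosphate and competes for nucleosides, had 0 of 24 genes called and 6 with an unadjusted p under 0.05 (median log2 fold change 0.04). Its smallest p-values belonged to thymidine kinase TK1 (0.26 ± 0.07 SE; edgeR adjusted p = 0.114) and to NT5E, a nucleotidase at the cell surface (-1.08 ± 0.31 SE; edgeR adjusted p = 0.145). NT5E counts were 24, 19 and 27 in knockdown and 45, 52 and 70 in control libraries, so its size of change is loosely determined. The synthesis of PRPP, the activated ribose of nucleotides, had 0 of 4 called and 0 with an unadjusted p under 0.05 (median 0.04), with PRPS2 at 0.08 ± 0.07 (SE) and PRPSAP2 at -0.06 ± 0.08 (SE).

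Close relatives and side enzymes of the pathway had 0 of 9 called and 2 with an unadjusted p under 0.05 (median log2 fold change 0.13). Those were H6PD, the NADPH-making dehydrogenase of the endoplasmic reticulum (0.20 ± 0.08 SE; edgeR adjusted p = 0.287), and PGM1, a phosphoglucomutase (0.17 ± 0.07 SE; edgeR adjusted p = 0.288). H6PD had 25.3, 27.4 and 24.0 CPM in knockdown and 23.3, 22.4 and 21.3 in control libraries. The transketolase relatives were near the detection limit, with TKTL1 counts of 28, 7 and 15 in knockdown and 8, 15 and 10 in control libraries and a TKTL2 count of 1 in knockdown library a and 0 elsewhere.

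Other NADPH sources and users had 0 of 18 called and 5 with an unadjusted p under 0.05 (median -0.02), led by the mitochondrial enzymes IDH2 (0.27 ± 0.07 SE; edgeR adjusted p = 0.129) and NNT (-0.22 ± 0.07 SE; edgeR adjusted p = 0.161). Enzymes at the junction with glycolysis or acting on the products of DERA had 0 of 21 called and 6 with an unadjusted p under 0.05 (median 0.11). Of the 21, 7 had no overlap between groups, all higher in knockdown, and 9.55% of all tested genes did so in that direction. ALDH1B1, an acetaldehyde-oxidising enzyme of mitochondria, was at 0.24 ± 0.08 (SE; edgeR adjusted p = 0.211) and PFKM, a phosphofructokinase, at 0.21 ± 0.07 (SE; edgeR adjusted p = 0.240). Among the stress granule proteins 0 of 6 were called and 0 had an unadjusted p under 0.05 (median 0.001), with YBX1 at 0.07 ± 0.08 (SE) and G3BP1 at 0.10 ± 0.07 (SE). DESeq2 and limma-voom called 0 genes in each of these 6 lists.

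**Figure D4:**
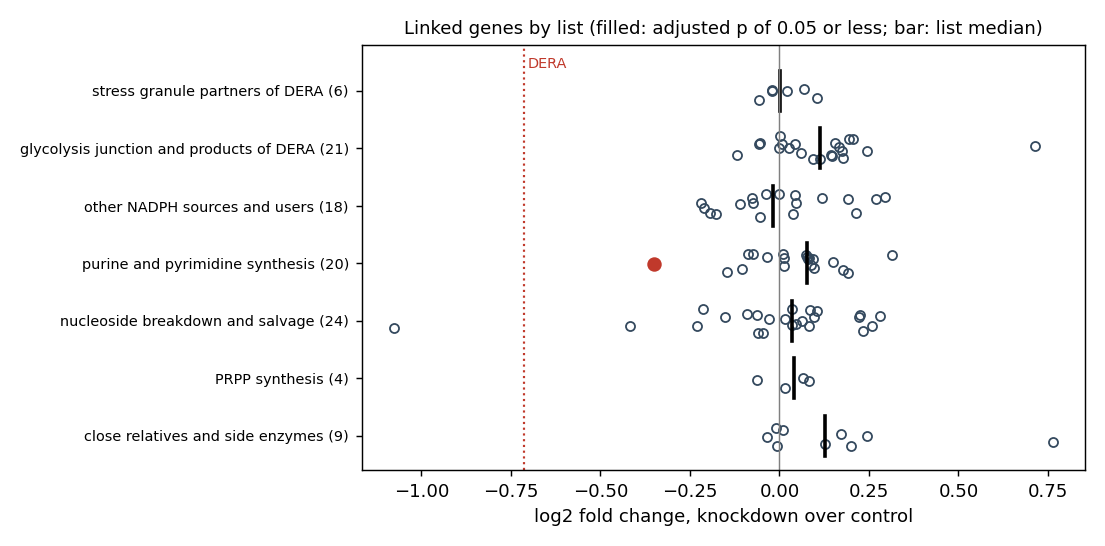
Log2 fold change (x axis, knockdown over control) of each of the 102 tested genes in the 7 linked lists, with a bar at each list's median and a dotted line at the DERA value of -0.71. The filled point is CTPS1 at -0.35, and NT5E at -1.08 is the open point beyond the DERA line.

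The neighbours of DERA on chromosome 12 were the 5 tested genes before it (C12orf60, RERG, PTPRO, EPS8 and STRAP) and the 5 after it (SLC15A5, MGST1, EEF1A1P16, RERGL and PIK3C2G) in GENCODE 29. In edgeR 0 of the 10 passed the threshold (0.786% of all tested genes) and 1 had an unadjusted p under 0.05 (14.2% of all). DESeq2 called 1 (4.18% of all) and limma-voom 0 (0.882%). The groups had no overlap in 2 of the 10, both lower in knockdown, as in 9.36% of all tested genes. STRAP, an RNA-binding protein whose start lies 28.8 kb before that of DERA, had 198, 199 and 173 CPM in knockdown and 176, 187 and 194 in control libraries, a change of 0.03 ± 0.07 (SE; edgeR adjusted p = 0.885). EPS8, an actin regulator that starts beside STRAP on the opposite strand, had 23.5, 23.3 and 28.8 CPM in knockdown and 38.0, 31.1 and 33.9 in control libraries, with no overlap. Its log2 fold change was -0.45 ± 0.10 (SE; edgeR adjusted p = 0.0701; over the alternatives 8.56e-05 to 0.267). EPS8 passed in 6 of 17 alternatives, among them DESeq2 (adjusted p = 0.00567), the replicate block (edgeR adjusted p = 0.0226) and the fit without knockdown library c (edgeR adjusted p = 0.00517). That fit was the only 1 of the 6 without a library in which it passed. Without knockdown library a the edgeR adjusted p was 0.152. Of the 10, C12orf60 was the other gene without overlap, at -0.21 ± 0.15 (SE; edgeR adjusted p = 0.561). MGST1, a glutathione transferase of membranes and the first well-counted gene after DERA, was at -0.08 ± 0.07 (SE; edgeR adjusted p = 0.626). The other 6 neighbours had mean counts of 25.7 to 167 per library and intervals that included 0. Without knockdown library a the sign changed for RERGL (0.21 to -0.38), PIK3C2G (0.27 to -0.21) and STRAP (0.03 to -0.001).

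**Figure D5:**
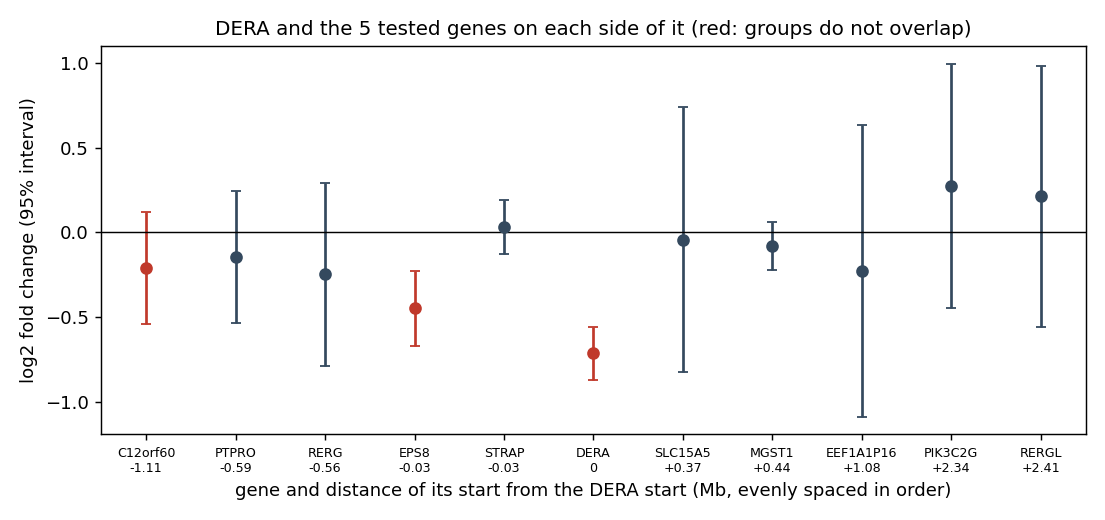
Log2 fold change with its 95% interval (y axis) of DERA and the 5 tested genes on each side, in order of their start and evenly spaced, with the distance to the DERA start in Mb below each name. STRAP at 0.03 lies between EPS8 at -0.45 and DERA at -0.71.

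Genes with the most similar profile were sought among 15139 tested genes with a mean count of at least 50. By Pearson correlation of log2 CPM with DERA over the 6 libraries, the closest were USP15 (0.998), RBPJ (0.998), DUSP14 (0.997), SLC44A5 (0.996) and RP11-321C1.1 (0.996). Their log2 fold changes were -0.26, -0.48, -0.29, -0.53 and -0.57, of which those of RBPJ, SLC44A5 and RP11-321C1.1 passed the threshold (edgeR adjusted p = 0.00316, 0.00195 and 0.00195). The difference between groups that they share with DERA enters each correlation. By deviation from the group means, which removes that difference, the closest were TTC39B (0.998), GOLGA2B (0.995), FNIP2 (0.992), ABHD17B (0.991) and AC004041.2 (0.989). Their log2 fold changes were -0.06, -0.10, -0.28, -0.20 and -0.28. No gene was on both lists, and no member of the pathway was on either. With 6 libraries and this many genes, these correlations are descriptions only.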

How the data were processed

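RNA of 6 libraries of H9 cells was compared, 3 per group. The authors deposited raw read counts per gene symbol in whole numbers. The submitters' processing notes list Trimmomatic 0.39, STAR 2.7.8a, featureCounts, Subread 2.14.2 and hg38; the annotation, strand setting and feature type are not given in the sources used here. The table held 53719 rows, and 32683 were matched to GENCODE 29 by symbol or older symbol.

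Genes were kept by filterByExpr and scaled by TMM, and knockdown was tested against control with edgeR 4.0.16 (glmQLFit, glmQLFTest; R 4.3.3) with the group as the only term. All tests were two-sided, with Benjamini-Hochberg adjustment over all 19721 genes tested. Alternatives used DESeq2 1.42.0, limma 3.58.1 (voom), other scalings and filters, thinning, a replicate block and leaving out each library. Removal of the gene span trend (natural spline, 5 degrees of freedom) was added after the data had been seen. The procedure was also run on simulated counts, drawn with the same spread for every gene. Those libraries differed only in their totals and the changes put in, so the run cannot show how the procedure handles uneven libraries.

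Members and lists were chosen with earlier results of these data known. All 9 members are named. A related enzyme was left out of the lists and is not reported here. From each linked list, called genes or else the 2 smallest p-values are named, with 5 neighbours on each side of DERA and the 5 genes most correlated with it by each measure. SD and intervals cover n = 3 libraries a group; intervals of a count of 0 cover counting error only, since PCR copies of a molecule cannot be recognised.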

Additional observations from a re-analysis of the deposited data

How the results depend on the processing

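The DERA fold change kept its direction and moved by less than the spread between replicates in all 17 alternatives, from -0.77 without knockdown library c to -0.69 without knockdown library b, and its ratio to the other members did so in all 6. The number of other members past the threshold was 1 instead of 0, in each case TIGAR, with DESeq2, with no low-count filter, with the replicate block and with the span trend removed, and 0 to 1 when each library was left out (1 without knockdown library c). The number of other members whose groups did not overlap was 1 to 4 when each library was left out, with fewer libraries to overlap: 3 without knockdown library a or c, and 4 and 2 with control libraries a and b left out in turn. RPIA changed sign to 0.0102 with library size alone and 0.00121 with upper-quartile scaling, and it ran from -0.111 to 0.0590 over the fits without a library. RPE changed sign to 0.00486 with library size alone, and it ran from -0.0439 to 0.00835 over those fits. Of the linked genes, 2 passed with the replicate block (CTPS1 and ADK), against 388 of 19721 tested genes. ADK is named after its value was seen. When each library was left out, 0 to 8 linked genes passed. The 8 were without knockdown library c, where 1309 of 20456 tested genes passed, and 0 passed without each of the other 5. These counts are not read as a result about the linked genes. Of the neighbours, 1 passed with DESeq2 (EPS8, which as a single gene also passed with the replicate block, the robust fit, no low-count filter and the span trend removed), and 0 to 1 when each library was left out (1 without knockdown library c, EPS8). Nothing in the labels says what libraries of the same letter share besides that letter. Their departures from the group means correlated at 2.14e-05 (a), 0.116 (b) and -0.0251 (c). These values cannot decide whether the libraries were paired by culture or batch. The replicate block raised the calls over all genes from 155 to 388, both of 19721 tested. Those counts were 1064 of 32300 with no low-count filter, 516 of 12355 with DESeq2 and 242 of 15911 with the span trend removed. When each library was left out they ran from 26 of 20413 (without control library a) to 1309 of 20456 (without knockdown library c). For none of these settings was the cause tested.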
